A study of Mus musculus with 2 samples.

Results

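The G2/M and mitosis genes are 57 mouse genes whose products take a cell from the end of DNA replication through chromosome segregation to cytokinesis. They were chosen by name, as known mitotic genes, and not by a threshold on their values, and all 57 were found among the 16384 genes of the deposited tables. The RNA came from sorted stage 1 iNKT (invariant natural killer T) cells, an early step of an innate-like T cell lineage, of the thymus of C57BL/6 mice at 5 weeks of age. The wild-type group and the Uhrf1 KO group had 1 library each, so the differences below have no replicate check and carry no p-values. Uhrf1 encodes the factor that recruits Dnmt1 to newly copied DNA, and the sources used here do not say how it was deleted, in which cells, or how many mice gave each library. The comparison asks which genes and pathways differ in these cells without Uhrf1.

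Entry into mitosis is driven by the kinase Cdk1 with cyclins A and B, and exit from it by the anaphase-promoting complex (APC/C), which destroys the cyclins and securin. Most of the genes concerned are transcribed in G2 from promoters that carry CCAAT boxes, bound by NF-Y, and a cell cycle homology region (CHR), bound by MuvB complexes with B-Myb and FoxM1 in cycling cells and with p130 or p107 and E2F4 (the DREAM complex) in resting cells. In the thymus, early iNKT cells divide after positive selection, and these transcripts are widely used as a measure of how much of a population is cycling.

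The promoters of the genes shared those letters, which the choice of genes by name did not use. RefSeq promoters (GRCm38.p6, the assembly also called mm10; 250 bases before to 50 after the start) were found for 48 of the 57 genes, 52 promoters in all. The genes with no entry were Ccna2, Cdc25c, Aurkb, Incenp, Tpx2, Dlgap5, Kif20a, Smc4 and Cdca2. CCAAT, searched on both strands (so also as ATTGG), stood in 40 of the 52 (76.9%), against 37.4% of all 32851 promoters of the same length and 38.1% of the 10138 promoters of genes whose mean FPKM was 1 or more. A CHR-type hexamer, which is TTTGAA on either strand (so also read as TTCAAA) and also the palindromic form TTCGAA, stood in 39 (75%), against 19.2% and 14.3%. Both kinds of match occurred together in 34 promoters (65.4%), against 7.52% and 5.9%. In 2 promoters, that of Ube2c among them, matches on opposite strands shared bases. Over the 250 bases before the start alone the share with both was 34.6%, against 6.02% of all promoters. These are matches of letters, not measured binding sites.

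The sequences below are the 250 bases before the annotated start, 5′ to 3′ on the strand of the gene, with the matches to CCAAT and to the CHR-type hexamers, on either strand, in capitals. The first 3 belong to the genes with the most negative differences on the log2(FPKM + 1) scale, KO against wild type. The next 3 belong to abundant genes within the size rule that held both kinds of match. The last belongs to Bub1, the only gene that rose and had a promoter entry. They are examples and do not stand for each outcome. They lie at chr4:118437344-118437593 (minus strand), chr7:127042421-127042670 (minus), chr10:69352913-69353162 (minus), chr2:164769679-164769928 (plus), chr3:89418292-89418541 (minus), chr11:99024190-99024439 (minus) and chr2:127831860-127832109 (minus).
Cdc20: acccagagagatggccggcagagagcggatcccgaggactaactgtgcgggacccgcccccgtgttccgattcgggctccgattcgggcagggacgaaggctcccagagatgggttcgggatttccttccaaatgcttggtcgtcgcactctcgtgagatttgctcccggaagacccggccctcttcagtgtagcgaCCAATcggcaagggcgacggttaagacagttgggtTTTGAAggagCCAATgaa
Kif22: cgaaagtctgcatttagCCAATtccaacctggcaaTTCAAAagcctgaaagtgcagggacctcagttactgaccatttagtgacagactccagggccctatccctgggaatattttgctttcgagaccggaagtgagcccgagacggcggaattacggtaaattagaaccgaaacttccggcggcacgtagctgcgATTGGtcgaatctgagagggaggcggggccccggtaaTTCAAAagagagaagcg
Cdk1: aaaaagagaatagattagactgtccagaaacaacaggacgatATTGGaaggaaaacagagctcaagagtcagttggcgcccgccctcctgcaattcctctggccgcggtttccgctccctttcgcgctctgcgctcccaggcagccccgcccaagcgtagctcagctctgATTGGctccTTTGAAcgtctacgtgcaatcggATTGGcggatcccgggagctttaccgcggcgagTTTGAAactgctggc
Ube2c: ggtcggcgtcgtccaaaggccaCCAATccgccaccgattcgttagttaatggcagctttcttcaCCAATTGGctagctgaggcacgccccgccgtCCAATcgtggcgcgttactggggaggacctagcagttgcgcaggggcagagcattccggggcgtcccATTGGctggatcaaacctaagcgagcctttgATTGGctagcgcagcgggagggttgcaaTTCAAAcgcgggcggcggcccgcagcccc
Cks1b: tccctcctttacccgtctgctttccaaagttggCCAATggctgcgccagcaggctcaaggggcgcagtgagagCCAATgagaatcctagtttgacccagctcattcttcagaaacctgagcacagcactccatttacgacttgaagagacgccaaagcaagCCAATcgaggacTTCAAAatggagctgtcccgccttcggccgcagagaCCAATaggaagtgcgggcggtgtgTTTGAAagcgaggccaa
Top2a: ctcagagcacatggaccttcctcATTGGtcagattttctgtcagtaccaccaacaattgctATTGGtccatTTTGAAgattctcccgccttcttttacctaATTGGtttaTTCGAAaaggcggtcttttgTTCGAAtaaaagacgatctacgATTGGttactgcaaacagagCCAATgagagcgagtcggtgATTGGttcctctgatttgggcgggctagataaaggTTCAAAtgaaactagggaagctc
Bub1: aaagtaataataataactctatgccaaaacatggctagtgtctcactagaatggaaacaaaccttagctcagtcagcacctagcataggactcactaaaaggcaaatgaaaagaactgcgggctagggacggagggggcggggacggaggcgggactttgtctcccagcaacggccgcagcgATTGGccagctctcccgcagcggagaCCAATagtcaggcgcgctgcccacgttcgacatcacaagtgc
Cdc20, Kif22 and Cdk1 each carried at least 1 match of both kinds in these bases, and so did Ube2c, Cks1b and Top2a. Birc5, another abundant gene within the size rule, had no match of either kind (not shown). Pttg1, not shown, had none either, but its entry (chr11:43425982-43426231, minus strand) lies within the annotated span of the gene, 43420244 to 43427463. That entry is therefore not the sequence before the outermost annotated start. Top2a and Ube2c each had 6 matches to CCAAT. Bub1 had 2 and no CHR-type hexamer before the start, while a TTCGAA lay in the bases after it. Of the promoters of genes that fell, 13 of 19 held both kinds in the full window (68.4%). Of those of genes within the size rule, 18 of 28 did (64.3%), so most promoters on both sides held them. In the shorter window these shares were 47.4% and 25%.

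**Figure D1:**
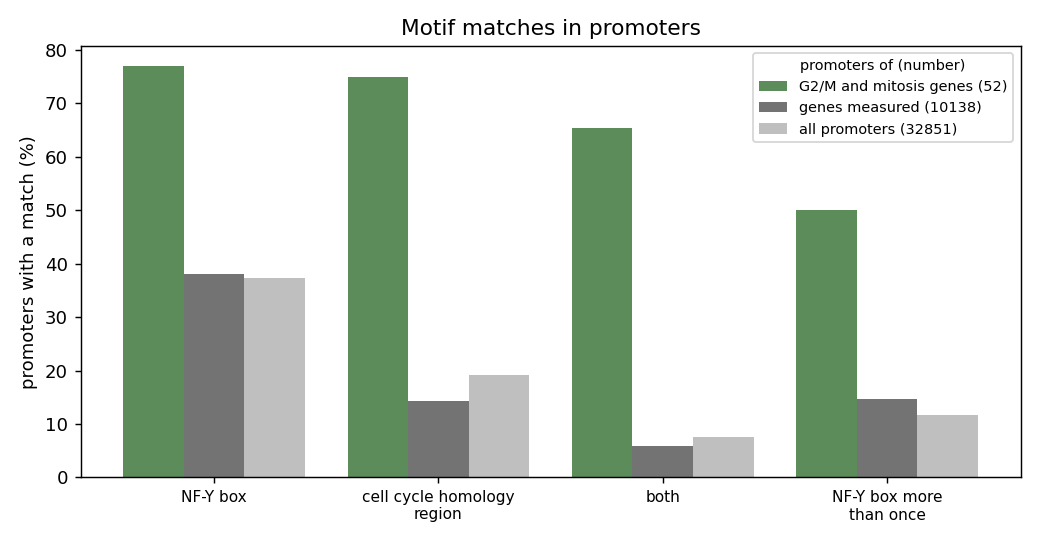
Share of promoters (%, y axis) with a match to the NF-Y box (CCAAT), to a CHR-type hexamer, to both, and to the NF-Y box at least 2 times, for the 52 promoters of the G2/M and mitosis genes and 2 backgrounds. Both kinds of match stood together in 65.4% of the 52 promoters, against 7.52% of all promoters.

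Reads assigned to genes numbered 26005824 (wild type) and 12189849 (KO), so low values are less precise in the KO. Uhrf1 itself went from an FPKM of 35.3 to 0.626, on 3032 and 25 reads. All 16 genes of an iNKT and T cell list were detected in both libraries, and 7 of them fell and 3 rose by the size rule given below. Cd3e (240 and 271, FPKM with the wild type first) and Cd3d (951 and 1110) were within it. Among those that fell were the iNKT lineage factor Zbtb16 (114 and 41.9), Icos (247 and 62.02), Cd24a (15.5 and 0.142) and Klrb1c (4.42 and 0.135), and Cd44 rose (0.9503 and 3.51), so the libraries also differed in markers of lineage and stage, whose part in the results was not tested. FPKM corrects for transcript length and library size. Below, each level is an FPKM, wild type first, and a difference is log2((KO FPKM + 1) / (WT FPKM + 1)). A gene whose mean FPKM was 1 or more counts as measured, and it "fell" or "rose" when its difference was at least 1 in size. Folds are ratios of the deposited scaled counts with a 95% exact (Clopper-Pearson) interval from the reads. The intervals hold counting error alone, with no variation between mice, sorts or libraries. Reads that are PCR copies of the same molecule would make them too narrow even for that.

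More of the mitotic genes fell, and fewer rose, than among all genes. Of the 54 measured, 19 fell (35.2%), where 23.6% of all 9954 measured genes fell, and 4 rose (7.41%), where 21.3% of all genes rose. Past the size rule in either direction were 42.6% of the mitotic genes and 44.9% of all genes, so the 2 sets differed in the direction of their large differences and not in how many had one. The median difference was -0.49, beside -0.0051 for all genes. A lower value of any size was seen for 37 of the 54 (68.5%), against 50.1% of all genes. A fall of at least 4-fold on the same scale was reached by 9 (16.7%, against 10.3%), and a rise of that size by none (0%, against 8.55%). Not measured were Plk4, Ect2 and Anln. In RNA of a bulk population, fewer cycling cells and less of these transcripts per cell cannot be told apart.

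Most of the falls, like most of the measured genes of the list, lay at middle levels. Of the 31 with a mean FPKM of 5 to 25, 14 fell (45.2%, against 23.2% of all genes at that level) and 1 rose (3.23%, against 24.1%). Of the 8 at 1 to 5, 4 fell (50%) and 2 rose (25%), against 37.6% and 23.5% of all genes. At 25 to 100, 1 of 10 fell and 1 of 10 rose, against 13.1% and 19.3%. The 5 most abundant genes, Birc5, Pttg1, Ube2c, Cks2 and Cks1b, led the list in both libraries and held 46.3% and 50.6% of its summed FPKM, wild type first. Their differences ran from -0.39 to 0.24, so 0 of 5 passed the size rule in either direction, where 6.21% of all genes at an FPKM of 100 or more fell and 7.49% rose. The summed FPKM of all 57 was 1780 and 1557, and without those 5 it was 956 and 770. The median gene had an FPKM of 13.9 and 5.45.

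**Figure D2:**
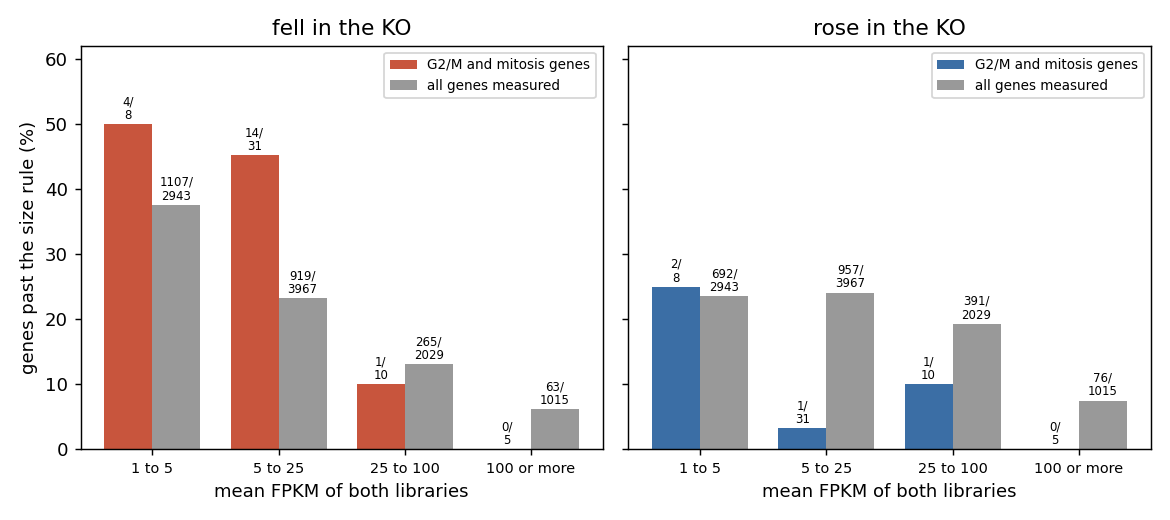
Share of genes (%, y axis) that fell or rose in the KO, by mean FPKM of both libraries (x axis), for the measured G2/M and mitosis genes (coloured) and all measured genes (grey), with the counts above each bar. At a mean FPKM of 5 to 25, 14 of 31 mitotic genes fell and 1 rose.

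**Figure D3:**
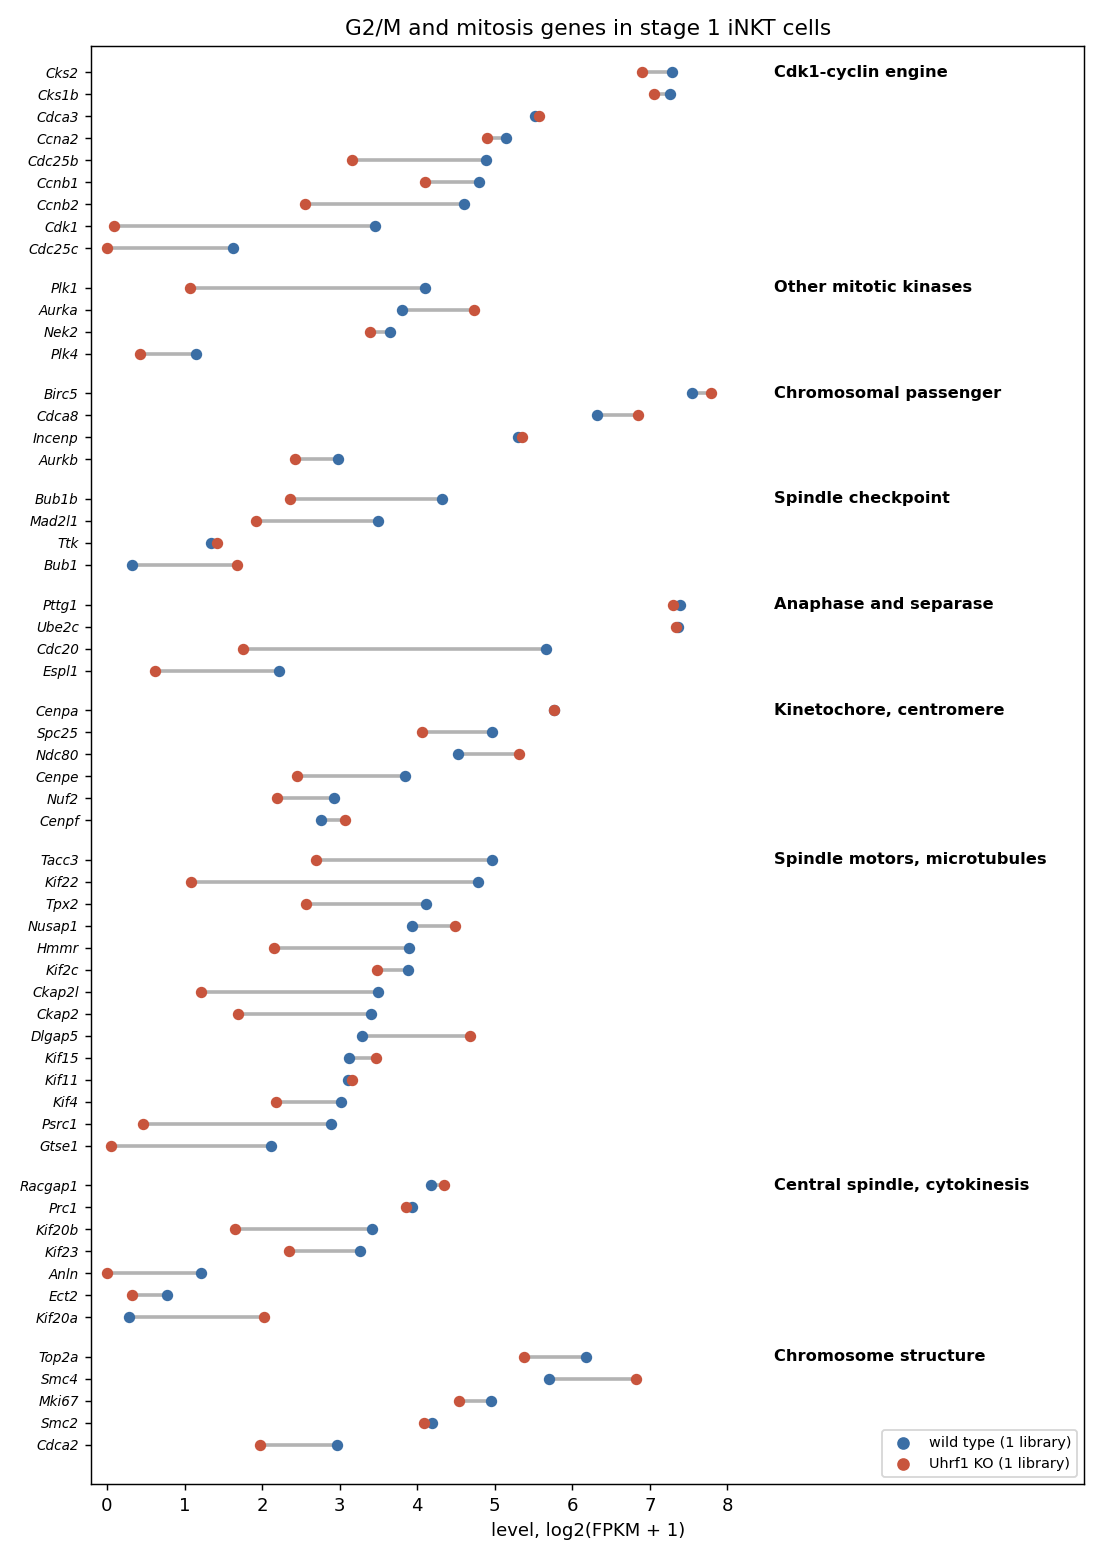
Level of each of the 57 genes, log2(FPKM + 1) on the x axis, in the wild-type library (blue) and the Uhrf1 KO library (red), grouped by role and ordered by wild-type level. The widest gaps to the left belong to Cdc20, Kif22, Cdk1 and Plk1, and the most abundant genes, such as Birc5 and Ube2c, nearly coincide.

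By role the groups were small, and their counts are read beside all measured genes, of which 23.6% fell and 21.3% rose. Among the genes of the Cdk1-cyclin engine, 4 of 9 fell (44.4%) and none rose, with a median of -0.70. Cdk1, the kinase that starts mitosis (Entrez gene 12534, chromosome 10, 69335146 to 69352912), went from 9.95 to 0.0627 and was nearly undetected in the KO, with 3 reads against 992. The ratio was 155 (interval 52.9 to 753). Its partner cyclins did not share that near-loss. Ccnb1, cyclin B1, had 26.9 and 16.1 on 2443 and 721 reads, 1.59-fold lower (1.46 to 1.73), within the size rule. Up to 51.9% of its transcript has a copy at 95% identity or more in a single pseudogene, Gm12856, and 51.7% in Ccnb1-ps, so its reads are uncertain. Ccnb2, cyclin B2, fell from 23.3 to 4.84 on 947 and 90 reads, 4.93-fold (3.97 to 6.19). Ccna2, cyclin A2, had 34.5 and 28.8 on 4012 and 1648 reads, 1.14-fold lower (1.08 to 1.21). It shares its locus in the files with Exosc9, which had 7.91 and 26.97. Of the Ccna2 transcript, 17.3% matches Exosc9 at 95% identity or more. How reads in that overlap were assigned was not tested.

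The Cdc25 phosphatases, which remove the inhibitory phosphates of Cdk1, both fell. Cdc25b went from 28.6 to 7.91 on 2060 and 259 reads, 3.73-fold (3.27 to 4.26). Cdc25c went from 2.08 to 0 on 121 and 0 reads, at least 18.9-fold lower against a floor of 3 reads per library. With a pseudocount of 5 in place of 1 the difference of Cdc25c was -0.50, short of the size rule. The small Cdk-binding subunits were abundant in both libraries and lay close together: Cks1b had 152 and 132, and Cks2 had 156 and 118. Cks2 also has near-identical processed copies. Cdca3, which helps to destroy the Cdk1 inhibitor Wee1, had 45.03 and 46.5, a fold whose interval held 1.

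Of the other mitotic kinases 1 fell. Plk1, which acts from mitotic entry to cytokinesis (chromosome 7, 122159435 to 122169884), went from 16.1 to 1.10 on 694 and 21 reads, 15.5-fold lower (10.1 to 25.2). Aurka, which matures centrosomes and activates Plk1, pointed the other way, with 12.9 and 25.5 on 635 and 568 reads, 1.91-fold higher (1.70 to 2.14). Its difference of 0.93 was just short of the size rule. Nek2, which separates the centrosomes, had 11.5 and 9.49. Plk4, which starts centriole duplication, had 1.21 and 0.348 and was not measured by the level rule.

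The chromosomal passenger complex corrects wrong attachments of chromosomes to the spindle and later guides cytokinesis, and none of its 4 genes fell or rose. Its kinase Aurkb was the only one lower, at 6.91 and 4.39 on 307 and 88 reads, 1.64-fold (1.29 to 2.097). The other subunits were level or higher. Birc5, which encodes survivin, had 186 and 219, Cdca8, which encodes borealin, had 79.1 and 115, and the scaffold Incenp had 38.5 and 39.7. The median of the group was 0.14.

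The spindle checkpoint, which delays anaphase until all kinetochores are attached, was split. Bub1b, which encodes the BubR1 part of the inhibitor of Cdc20, fell from 18.9 to 4.13 on 1838 and 182 reads, 4.73-fold (4.06 to 5.54). Mad2l1, another part of that inhibitor, fell from 10.3 to 2.78 on 706 and 93 reads, 3.56-fold (2.86 to 4.47). Bub1, the kinase that recruits both to the kinetochore, rose from 0.249 to 2.20 on 50 and 216 reads, 9.22-fold (6.75 to 12.8). Ttk, the kinase at the top of the pathway, had 1.54 and 1.68. Bub1 and Ttk were low in both libraries, and with a pseudocount of 5 neither the rise of Bub1 (0.46) nor the fall of Mad2l1 (-0.97) reached the size rule.

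At anaphase the APC/C coactivator and separase fell while the other members stayed level. Cdc20, which brings securin and cyclin B to the APC/C (chromosome 4, 118432901 to 118437343), had the most negative difference of the 57 genes on the log2(FPKM + 1) scale (-3.90), from 49.5 to 2.38 on 1704 and 36 reads, 22.2-fold (16.0 to 31.8). The folds of Cdk1, Gtse1 and Kif22 were larger, as was the bound of Anln, which had 0 KO reads. Cdc25c, also at 0 KO reads, cannot be ranked against Cdc20 by fold. Cdc20 shares its locus in the files with Elovl1, which fell too (89.0 and 11.95). The search for copies at 95% identity found no other gene, Elovl1 included, that matched 100 bases or more of the Cdc20 transcript. How reads in any shorter overlap were assigned was not tested. Espl1, which encodes separase, the protease that cuts cohesin, fell from 3.67 to 0.537 on 532 and 34 reads, 7.33-fold (5.18 to 10.7). Its difference was -0.65 with a pseudocount of 5. The enzyme and the substrate of the same step were among the most abundant genes: Ube2c, the APC/C ubiquitin-conjugating enzyme, had 164 and 161, and Pttg1, securin, had 166 and 156. The intervals of both folds held 1.

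Kinetochore and centromere genes had 1 fall in 6 (16.7%, against 23.6% of all genes). Cenpe, the kinesin that carries chromosomes to the spindle equator, fell from 13.3 to 4.46 on 4044 and 628 reads, 3.02-fold (2.77 to 3.29), and its difference was -0.95 with a pseudocount of 5. The subunits of the Ndc80 complex, which holds microtubule ends, did not move together. Ndc80 itself had 21.9 and 38.6, 1.75-fold higher (1.63 to 1.89). Its dimer partner Nuf2 had 6.61 and 3.56, 1.82-fold lower (1.52 to 2.18), and Spc25 had 30.2 and 15.8, 1.80-fold lower (1.62 to 2.01). Spc24, the partner of Spc25, had 48.7 and 55.5 and was singled out after its values were seen. All 4 were within the size rule. Cenpa, the histone variant of centromeres, had 53.4 and 53.5, and Cenpf, a large kinetochore protein, had 5.77 and 7.36.

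The spindle motors and microtubule-binding proteins, the largest group, held the most falls, 8 of 14 (57.1%), with a median of -1.64 and 1 rise. Kif22, the chromokinesin that pushes chromosome arms outward (chromosome 7, 127027729 to 127042467), fell from 26.6 to 1.11 on 1246 and 23 reads, 25.4-fold (16.8 to 40.2). Tpx2, the activator of Aurka on the spindle, fell from 16.4 to 4.91 on 2342 and 326 reads, 3.37-fold (2.998 to 3.79). Tacc3, which Aurka loads onto kinetochore fibres, fell from 30.1 to 5.45 on 1977 and 160 reads, 5.79-fold (4.93 to 6.85). Aurka, higher in the KO library, stood beside lower levels of 2 genes for proteins that it works with on the spindle.

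Other microtubule proteins fell as well, by unequal amounts. Hmmr, which helps to focus spindle poles, fell from 13.9 to 3.45 on 2325 and 275 reads, 3.96-fold (3.50 to 4.51). The related cytoskeletal genes Ckap2 (9.55 and 2.21, 1033 and 117 reads) and Ckap2l (10.2 and 1.32, 1125 and 68 reads) fell 4.14-fold (3.42 to 5.05) and 7.75-fold (6.07 to 10.1). Psrc1, a microtubule-binding protein, fell from 6.42 to 0.375 on 233 and 6 reads, 18.2-fold (8.24 to 50.1). Gtse1, which binds microtubule plus ends and p53, went from 3.33 to 0.0368, with a single read in the KO against 206. The ratio was 96.6 (17.1 to 3832), and with a pseudocount of 5 the difference was -0.73.

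The other 6 genes of the group did not fall. Kif11, the kinesin that makes the spindle bipolar, had 7.59 and 7.94, and Kif15, which can stand in for it, had 7.67 and 10.03. Dlgap5, which stabilises kinetochore fibres, rose from 8.79 to 24.6 on 737 and 939 reads, 2.72-fold (2.47 to 2.998). Nusap1, which bundles microtubules near chromosomes, had 14.3 and 21.5, and it shares its locus with Oip5, at 4.01 and 2.21. Kif2c, a microtubule depolymerase, had 13.8 and 10.1, and the chromokinesin Kif4 had 7.12 and 3.52, 2.07-fold lower (1.80 to 2.39) yet within the size rule.

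Genes of the central spindle and cytokinesis had 1 fall and 1 rise among 5 measured (20% each). These shares were near those of all genes, 23.6% and 21.3%. Kif20b fell from 9.71 to 2.14 on 2453 and 258 reads, 4.46-fold (3.92 to 5.09), whereas its paralog Kif20a, which carries the passenger complex to the midzone, rose from 0.221 to 3.06 on 24 and 157 reads, 14.0-fold (9.05 to 22.4). Kif20a lies at a locus that the files share between 3 genes, with Brd8 (9.38 and 18.4) and Cdc23 (8.11 and 4.36), and 34.7% of its transcript matches transcripts of Cdc23 at 95% identity or more. Its difference was 0.63 with a pseudocount of 5, so the rise of Kif20a is uncertain. Kif23 and Racgap1, the motor and the GTPase activator of the centralspindlin complex, had 8.62 and 4.09 and 17.0 and 19.3. Prc1, which bundles midzone microtubules, had 14.2 and 13.5. Anln, which links actin and myosin in the contractile ring, had 283 and 0 reads. It was 44.2-fold lower with the KO at the same floor of 3 reads, and the low end of its 95% interval was 35.7. Its mean FPKM of 0.657 kept it out of the counts, as did that of Ect2, the activator of RhoA (0.711 and 0.255).

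Chromosome structure genes included the usual proliferation markers, and none of 5 fell. Mki67, the coat protein of mitotic chromosomes, had 30.0001 and 22.2 on 10501 and 3526 reads, 1.40-fold lower (1.34 to 1.45). Top2a, which untangles sister chromatids, had 71.5 and 40.7 on 14393 and 3874 reads, 1.74-fold lower (1.68 to 1.80). The condensin ATPases parted: Smc4 rose from 50.8 to 112.6 on 10022 and 10753 reads, 2.29-fold (2.23 to 2.35), and its dimer partner Smc2 had 17.3 and 16.1. Cdca2, which brings phosphatase 1 to chromatin, had 6.78 and 2.94, and its difference of -0.98 was the nearest to the size rule from inside.

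**Figure D4:**
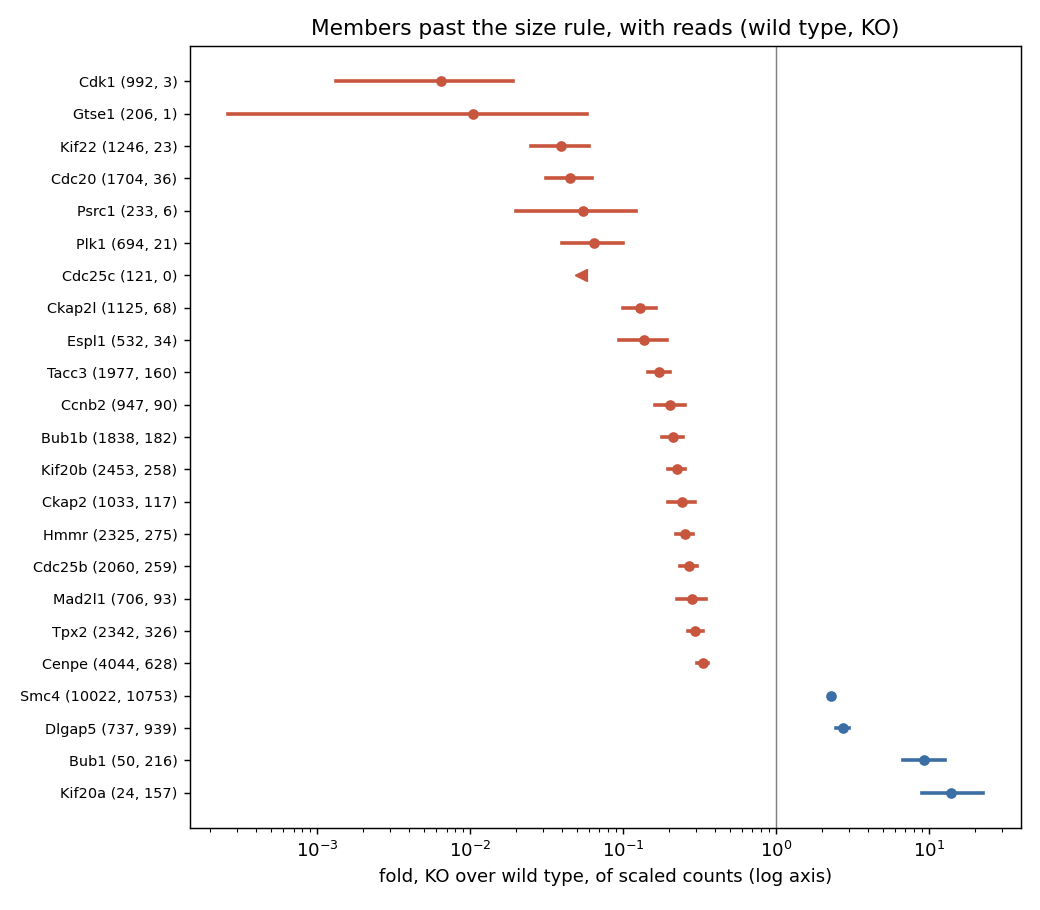
Fold, KO over wild type, of the scaled counts (log axis) for the 19 genes that fell (red) and the 4 that rose (blue), with 95% exact intervals as lines and the reads in each library in brackets. The arrowhead marks Cdc25c, with 0 reads in the KO, at its bound against 3 reads, and the 3 reads of Cdk1 and the single read of Gtse1 give the widest intervals.

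Counting error was small beside most of these differences. The interval of the fold held 1 for 9 of the 54 genes (16.7%, against 8.49% of all measured genes), namely Cdca3, Incenp, Ttk, Ube2c, Pttg1, Cenpa, Kif11, Prc1 and Smc2. Of the 48 genes with a wild-type FPKM of at least 5, only Cdk1 (2.08%) was down to 3 KO reads or fewer (against 4.77% of all such genes). The ratio of FPKM values and the ratio of scaled counts agreed within 0.892 to 1.07 times for the 55 genes with reads in both libraries.

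Other genes of mitosis, from lists taken from textbook roles, showed a like lean for some groups and not for others at a pseudocount of 1. Of all measured genes 23.6% fell and 21.3% rose there. At a pseudocount of 5, 1254 and 1292 of all 9954 did. Among regulators of mitotic entry 5 of 13 fell and 1 rose (median -0.72). Ccnf, the cyclin of an SCF ubiquitin ligase, fell from 14.7 to 1.51, Mnat1 and Cdk7, subunits of the Cdk-activating kinase, fell from 19.9 to 3.21 and from 4.43 to 0.544, and Cdc25a fell from 17.7 to 5.54. At a pseudocount of 5, 3 of the 5 falls and 0 rises were left. Among other kinetochore and checkpoint genes 10 of 30 fell and 3 rose (median -0.41). Cenpt, which links centromeric chromatin to Ndc80, fell from 16.4 to 0.709, Hjurp, which loads Cenpa, fell from 4.38 to 0.243, while Cenpl, an inner kinetochore subunit, rose from 1.63 to 15.3. At a pseudocount of 5 the 10 falls of that list became 3 and its 3 rises became 2.

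Other spindle and cytokinesis genes had 8 of 26 fallen and 4 risen (median -0.43). Spag5, a spindle protein also called astrin, fell from 6.02 to 0.353, Depdc1b from 4.02 to 0.0892 on 289 and 3 reads, and the kinase gene Melk from 3.22 to 0. Troap, a microtubule-associated protein, rose from 0.612 to 21.7 on 26 and 396 reads. The 8 falls became 1 at a pseudocount of 5 and the 4 rises became 2, so the excess of falls over rises was not kept. The median of the list stayed below that of all genes there, at -0.27 beside -0.0032. APC/C subunits and coactivators had 4 of 17 fallen and 1 risen (median -0.31), a share of falls (23.5%) next to the 23.6% of all genes. Cdc26, Anapc15 and Anapc2 fell from 112 to 19.2, from 57.9 to 15.3 and from 36.9 to 14.4, and Cdc27 rose from 2.73 to 8.46. Condensin and cohesin genes leaned neither way, with 2 of 17 fallen and 2 risen (median 0.15). Cdca5, which encodes sororin, the protector of cohesin, fell from 11.0 to 0.170 on 564 and 4 reads, and Ncapd3 from 9.42 to 2.17. Ncapg and Pds5b rose from 3.71 to 11.5 and from 2.33 to 7.57.

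A list of cell cycle transcription regulators holds NF-Y, MuvB and FoxM1 genes and also the E2F and Rb families. By its counts it lay near the background, with 6 of 21 fallen (28.6%, against 23.6% of all measured genes) and 4 risen (19%, against 21.3%). Its median was -0.33, beside -0.0051 for all genes. Foxm1, the activator of G2/M genes, fell from 12.2 to 0.637 on 1265 and 29 reads, 20.4-fold (14.2 to 30.7). Mybl2, which encodes B-Myb, had 5.90 and 3.85 on 476 and 137 reads, and the MuvB subunit Lin9 had 1.52 and 0.337, below the level rule. E2f8, a repressor made in late S phase, went from 4.81 to 0.0196 on 526 and 1 reads, Rb1 fell from 4.67 to 0.475, and the NF-Y subunit Nfyc rose from 12.7 to 31.5. Of the 6 falls, 2 were left at a pseudocount of 5, and of the 4 rises, 1. Foxm1, Rb1, Cdk7, Hjurp and Ncapg each share their locus in the files with at least 1 other gene. The genes of the step before mitosis, G1/S and replication, had 14 of 46 fallen (30.4%), 5 risen (10.9%) and a median of -0.21. No test of the difference from the mitotic genes was possible with 1 library per genotype.

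Markers of other cells differed between the same libraries, and their part in the values above was not tested. Of 20 genes of naive, resting T cells 12 rose and 1 fell, with summed FPKM of 1194 and 3185 and no gene at 0. Of 19 myeloid and dendritic cell genes in the files 11 were measured and 10 rose, with sums of 351 and 3214, while Itgax, Emr1, Cd14 and Spic were at 0 in both libraries and Hmox1 in the KO. Of 14 erythroid genes 7 were measured and 6 rose, with sums of 392 and 1872, and Klf1 and Slc4a1 were among 7 at 0 in both. Of 13 genes of thymic stroma and epithelium 7 were measured and 5 rose, with sums of 43.4 and 162, Krt8 and Pdgfra being at 0 in both and Epcam and Krt5 in the KO. Of 5 genes of gamma-delta T cells 4 fell, with sums of 176 and 7.17, and Blk was at 0 in the KO. A change in the mix of sorted cells and a change within iNKT cells cannot be told apart in these libraries.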

How the data were processed

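Stage 1 iNKT cells were sorted from mouse thymus and sequenced as 1 wild-type and 1 Uhrf1 KO library, with groups taken from the labelled genotype. The submitters' processing notes name mm10, Cufflinks 2.1.1 and TopHat2 2.0.9, per the labels, and give no role, annotation or filter. The authors deposited an FPKM value per gene, per the file headers. They also deposited a column headed as a count, which holds a scaled signal: nearly all values are whole multiples of 0.799 (wild type) or 1.7 (KO), and the columns sum to 20780249 and 20780910. Division by these steps gave reads that were whole, with a tolerance of 0.01 or the rounding of the largest values, for 98.2% and 98.7% of nonzero genes. No count model was fitted with 1 library per genotype.

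Differences used FPKM with a pseudocount of 1, which understates the change of low genes, a mean FPKM of at least 1 and a size rule of 1. The genes, lists and alternatives were chosen with earlier results of these data known. All 57 genes are named; full values go to genes past the size rule and to Mki67, Top2a, Ccnb1, Ccna2, Aurka and Aurkb, and up to 4 genes with the largest difference are named from each other mitotic list, with Foxm1, Mybl2 and Lin9. For the list of G1/S genes only counts are given. Most genes of the other lists are counted but not reported here by name. Copies were sought with BLAST among GENCODE M21 transcripts (identity of at least 95%). Coordinates and promoters are from RefSeq GRCm38.p6. Software was scipy 1.17.1, pandas 2.3.3, matplotlib 3.10.9 and numpy 2.4.6 under Python 3.11.15, and the steps were tested on simulated data.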

Additional observations from a re-analysis of the deposited data

How the results depend on the processing

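The 12 alternative settings chosen at the start and 2 added after the data were seen (leaving out genes with near-identical copies, and more than 10 reads in each library) kept the median of the mitotic genes below 0. The 19 falls ran from 14 (pseudocount of 5) to 27 (size rule of 0.5) under all but 2 of them, where 1254 and 3445 of all 9954 genes fell. With a size rule of 2, 9 fell and 0 rose, against 1026 and 851 of all genes. At a mean FPKM of at least 25, 1 of 15 fell and 1 rose, with a median of -0.028, against 328 and 467 of 3044 genes, which by construction leaves out the genes at middle levels. The 4 rises became 2 with a pseudocount of 5, when 1254 and 1292 of all genes fell and rose. They were also 2 at a mean FPKM of at least 5, when 1247 and 1424 did. With a size rule of 0.5 they were 8, when 3445 and 3331 did. Scaling to the upper quartile moved the median of all genes to -0.12, and 22 mitotic genes fell and 4 rose, against 2519 and 1905 of all genes. Among the 29 genes given full values, 7 lost their call with a pseudocount of 5 and 14 with a size rule of 2; none changed direction. Promoters with both motifs fell from 65.4% to 34.6% in the shorter window. Of 28 folds, only that of Smc4 left its interval when taken from FPKM (2.21). No paired analysis was possible because each genotype had 1 library, and no library could be left out. The KO had fewer reads by 2.13 times, which limits the lowest genes.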
